A study of Rattus norvegicus with 17 samples.

Results

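Bile acid synthesis, uptake and export were described through 10 genes: Cyp7a1, Cyp8b1, Cyp27a1 and Cyp7b1 for synthesis, Slc10a1, Slco1b2 and Slco1a4 for uptake, Abcb11 for export, and Nr1h4 and Nr0b2 for regulation. A gene was included where the array's annotation gave its symbol as the only gene of a probe set, and 7 of the 10 were found among 14557 genes with such a probe set. Cyp8b1, Abcb11 and Nr1h4 had no such probe set and were not analysed here. The 7 genes had 1 probe set each, all 7 passed the filter on dim genes, and 12912 genes were tested in all.

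The livers came from 17 male Wistar rats killed at 24 days of age, 1 male from each litter. All mothers had received a choline-deficient AIN-93 M diet for 16 weeks to establish fatty liver and were then mated with healthy males fed the standard diet, so no group descends from untreated mothers. DD pups (n = 4) had mothers kept on the deficient diet in pregnancy and lactation. DN pups (n = 5) had mothers on the deficient diet in pregnancy and the standard AIN-93 G diet in lactation, ND pups (n = 4) the reverse, and NN pups (n = 4) mothers returned to the standard diet for both periods. RNA was hybridised to Affymetrix arrays, 1 array a liver, and levels are given on the log2 scale as deposited, so that 1 unit is a doubling. Levels are compared between livers for the same gene and not between genes.

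Bile acids are made from cholesterol in hepatocytes. The classical pathway starts with Cyp7a1, cholesterol 7alpha-hydroxylase, its rate-limiting enzyme, and the alternative pathway with the mitochondrial sterol hydroxylase Cyp27a1, followed by the oxysterol 7alpha-hydroxylase Cyp7b1. Bile acids returning from the gut are taken up across the sinusoidal membrane by the sodium-dependent transporter NTCP (Slc10a1) and by organic anion transporters such as Slco1b2 and Slco1a4, and are secreted into bile by the bile salt export pump (Abcb11). The bile acid receptor FXR (Nr1h4) induces SHP (Nr0b2), which represses Cyp7a1.

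The tissue label is liver, whereas a free-text field names LnCap, a human prostate cancer line. Of 10 hepatocyte markers 8 were found, and each had a mean above at least 99.7% of the genes. Array spread, which is how widely the log2 values of all probe sets on 1 array scatter (their SD), ranged from 1.62 to 1.74 in DD, 1.72 to 1.79 in DN, 1.69 to 1.79 in ND and 1.66 to 1.79 in NN. Arrays DN 3 and DD 3 had the lowest mean correlations with the others.

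The uptake transporters Slco1b2, Slco1a4 and Slc10a1 had their highest group mean in DN livers, those of pups deprived through the mother in pregnancy only. Slco1b2 averaged 2.16-fold higher in DN than in NN livers and 2.25-fold lower in DD than in DN livers. Slco1a4 averaged 2.16-fold higher in DN than in NN livers, and Slc10a1 1.40-fold higher. None of these differences passed the test over all genes (limma with Benjamini-Hochberg adjustment). RNA came from whole liver, so fewer cells of a type and less RNA per cell cannot be told apart.

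The promoters of these 3 transporters are shown because their levels went together over the livers. Each window runs from 250 bases before to 50 bases after the RefSeq transcription start, 5′ to 3′ on the gene's strand, in assembly GRCr8. Slco1b2 lies at chr4:176282334-176282633 (plus strand), Slco1a4 at chr4:176495797-176496096 (minus strand) and Slc10a1 at chr6:106357895-106358194 (minus strand). Slco1b2 and Slco1a4 are neighbours in the Slco1 gene cluster of chromosome 4 in that assembly. Capitals mark GTTAAT, a half-site of hepatocyte nuclear factor 1, a liver transcription factor.
Slco1b2: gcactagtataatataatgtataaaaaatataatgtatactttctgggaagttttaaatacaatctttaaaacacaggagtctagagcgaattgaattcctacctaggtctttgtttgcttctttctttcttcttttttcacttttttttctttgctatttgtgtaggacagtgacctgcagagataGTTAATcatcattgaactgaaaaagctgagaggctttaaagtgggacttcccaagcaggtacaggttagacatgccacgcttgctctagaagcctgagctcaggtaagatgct
Slco1a4: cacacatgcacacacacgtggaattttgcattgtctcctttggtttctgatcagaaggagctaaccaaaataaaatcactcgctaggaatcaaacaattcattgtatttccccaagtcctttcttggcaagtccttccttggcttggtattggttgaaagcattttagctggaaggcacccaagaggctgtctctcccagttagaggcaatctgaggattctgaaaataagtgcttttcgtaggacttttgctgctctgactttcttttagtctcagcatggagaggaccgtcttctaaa
Slc10a1: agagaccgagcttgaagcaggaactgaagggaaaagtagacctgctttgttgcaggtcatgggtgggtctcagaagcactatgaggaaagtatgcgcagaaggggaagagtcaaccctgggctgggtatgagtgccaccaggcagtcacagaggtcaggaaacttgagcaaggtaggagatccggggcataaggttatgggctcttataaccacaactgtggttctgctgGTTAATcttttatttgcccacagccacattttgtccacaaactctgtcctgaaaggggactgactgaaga

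GTTAAT, searched on both strands, occurred once in the Slco1b2 window (first base at -63, counted from the start) and once in the Slc10a1 window (at -20), and not in the Slco1a4 window. It occurs in 7.45% of 33469 rat promoter windows of this length. AGGTCA, the half-site of many nuclear receptors, occurred once in Slco1b2, on the opposite strand, 2 times in Slc10a1 and not in Slco1a4, against 16.2% of all windows with at least 1, and no AGGTCA match overlapped a GTTAAT match. A match describes these letters and not a bound site.

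Slco1b2 (OATP1B2) is a sodium-independent carrier of bile acids and drugs made almost only in hepatocytes. Its log2 signal was 6.36, 6.83, 7.64 and 7.06 in DD, 8.34, 8.13, 8.03, 8.39 and 7.83 in DN, 7.98, 6.94, 7.39 and 8.16 in ND, and 6.75, 7.55, 7.74 and 6.08 in NN. All 5 DN livers lay above all 4 DD livers and above all 4 NN livers, while ND livers overlapped every other group. Such separation was seen for 5.88% of genes tested between DD and DN and for 3.04% between DN and NN, and of the 7 genes Slco1b2 was the 1 that showed it, in both. The mean was 8.14 ± 0.23 (SD, n = 5) in DN against 7.03 ± 0.77 (SD, n = 4) in NN, a difference of 1.11 ± 0.32 (SE, adjusted p = 0.279). Without NN 4, the lowest liver, that difference was 0.795 ± 0.30 (SE, limma adjusted p = 0.698). That adjusted p was the smallest of any gene in that fit. DD averaged 6.97 ± 0.53 against that DN mean, a difference of -1.17 ± 0.32 (SE, adjusted p = 0.131). Both comparisons use the DN livers, so their opposite signs are not independent.

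**Figure D1:**
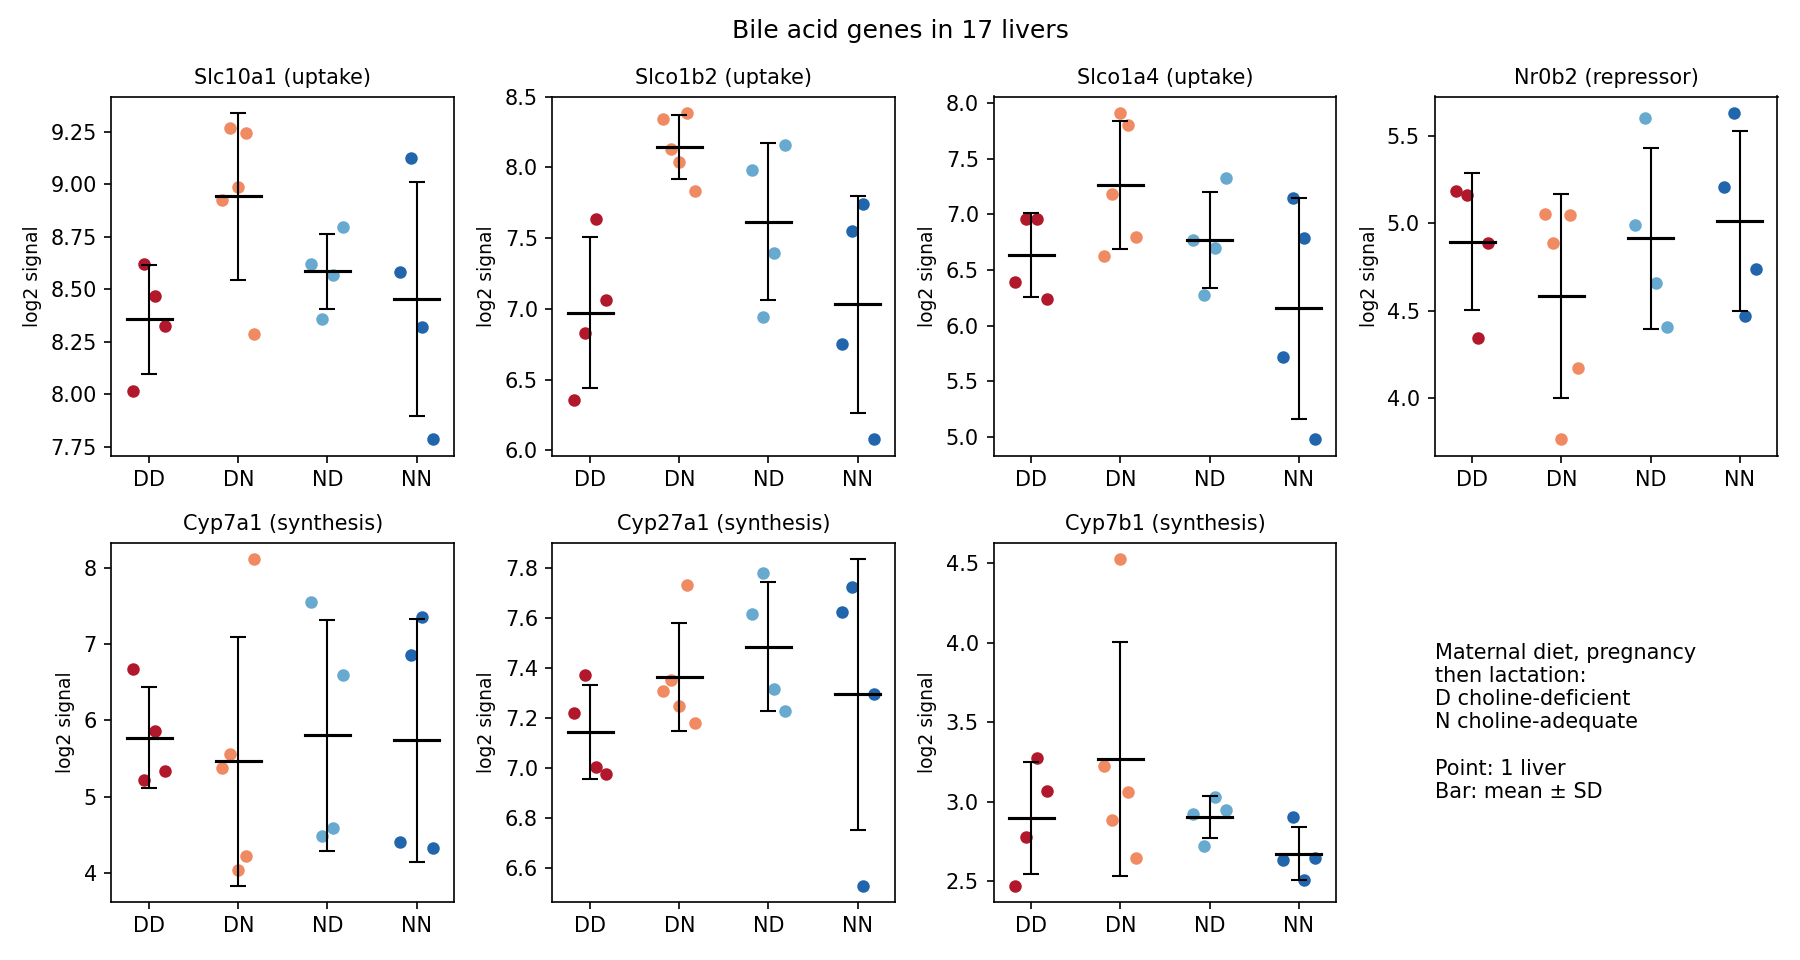
Log2 signal (vertical axis) of the 7 bile acid genes in DD, DN, ND and NN livers (horizontal axis); points are single livers, the wide line is the group mean and the bars are SD. The DN livers stand above the DD and NN livers for Slco1b2, whereas Cyp7a1 covers 4.04 to 8.11 with every group overlapping.

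Slco1b2 also had the smallest p of the 7 genes for the interaction, which asks whether the difference made by a deficient lactation diet depends on the pregnancy diet. DD minus DN was -1.17, whereas ND averaged 7.62 ± 0.56 and NN 7.03 ± 0.77, so the lactation difference had the opposite sign after an adequate pregnancy diet. The interaction was -1.76 ± 0.46 (SE, 95% interval -2.73 to -0.78, adjusted p = 0.114). It passed in 1 of the 17 fits that left out an array, that without NN 2 (-1.93, adjusted p = 0.0363), in which 639 genes passed in place of 0. The adjusted p lay between 0.0363 and 0.264 over those 17 fits.

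Slco1a4 (OATP1A4, formerly Oatp2), a carrier of bile acids and digoxin, had 6.39, 6.96, 6.96 and 6.24 in DD, 6.63, 7.18, 7.92, 7.80 and 6.80 in DN, 6.77, 6.28, 6.70 and 7.33 in ND, and 5.71, 7.15, 6.78 and 4.98 in NN. The groups overlapped, with DN holding the 2 highest livers and NN the 2 lowest. The DN mean was 7.27 ± 0.58 (SD, n = 5) against an NN mean of 6.16 ± 0.99 (SD, n = 4), a difference of 1.11 ± 0.38 (SE, adjusted p = 0.281). Its interaction was -1.24 ± 0.55 (SE, adjusted p = 0.22). Without NN 4, the lowest liver, DN minus NN was 0.72 ± 0.34 (SE) with a limma adjusted p of 0.698, again the smallest of any gene.

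Slc10a1 (NTCP), the main sodium-dependent bile acid carrier, had 8.01, 8.62, 8.47 and 8.32 in DD, 8.93, 9.27, 8.99, 9.25 and 8.29 in DN, 8.62, 8.36, 8.57 and 8.79 in ND, and 8.58, 9.13, 8.32 and 7.78 in NN. Of the 5 DN livers 4 lay above all DD and all ND livers, and the fifth, DN 5, lay below 3 of the 4 DD livers. DD averaged 8.36 ± 0.26 (SD, n = 4) against 8.94 ± 0.40 (SD, n = 5) in DN, a difference of -0.59 ± 0.23 (SE, adjusted p = 0.204). DN exceeded the NN mean of 8.45 ± 0.56 (SD, n = 4) by 0.49 ± 0.23 (SE, adjusted p = 0.372), a value that came to 0.27 without NN 4. The interaction was -0.72 ± 0.34 (SE, adjusted p = 0.246). NN 4 was the lowest of all 17 livers for each of the 3 transporters.

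**Figure D2:**
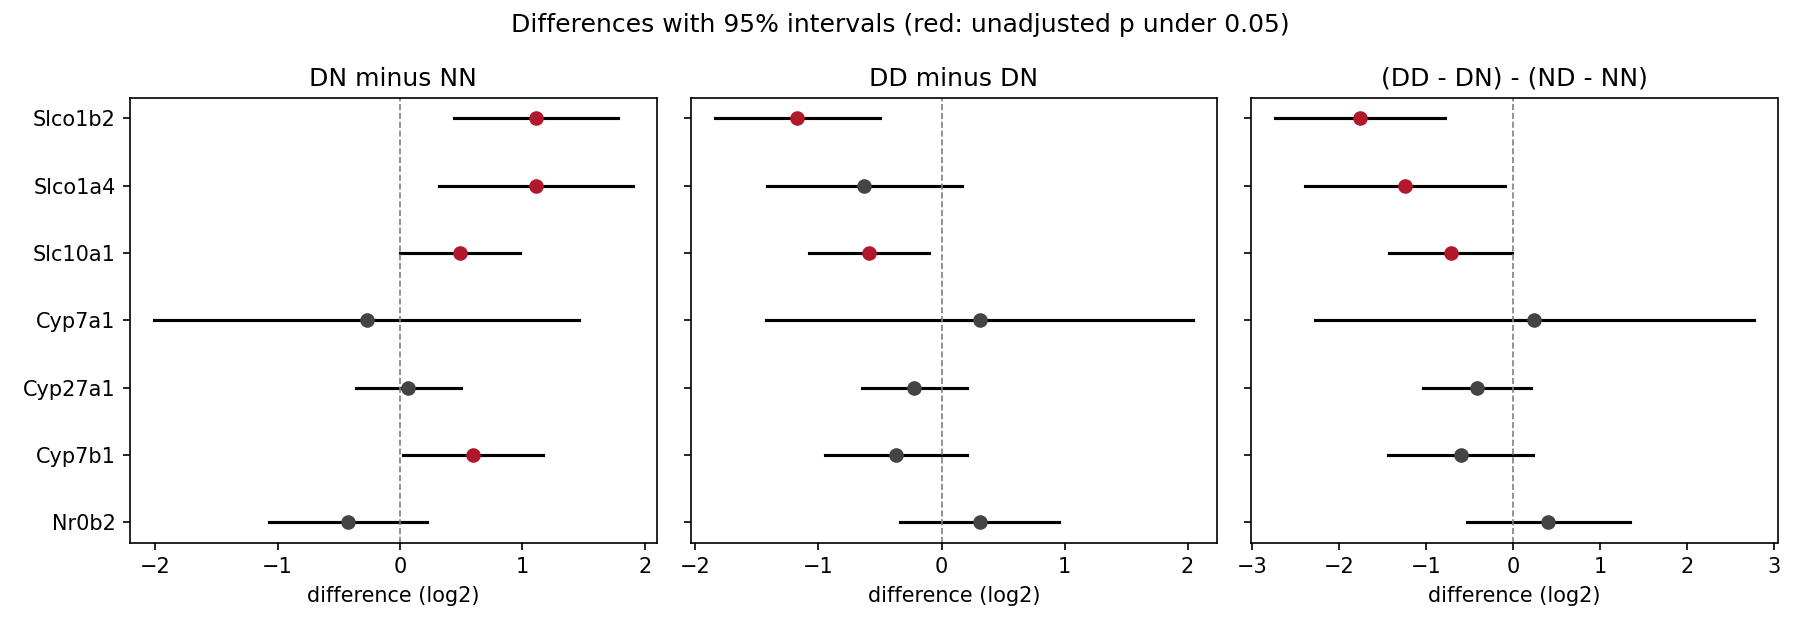
Differences in log2 signal (horizontal axis) of the 7 genes (vertical axis) for DN minus NN, DD minus DN and the interaction; points are limma estimates, lines are 95% intervals and red marks an unadjusted p under 0.05. Slco1b2 is at 1.11, -1.17 and -1.76, and the Cyp7a1 intervals are the widest in each panel.

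Counted over the comparisons, 0 of the 7 genes were called at an adjusted p under 0.05 in any of them. The share of all genes so called was 0.00774% in DD against DN and 0% in the other 6 comparisons. At an unadjusted p under 0.05 the count was 4 of 7 in DN against NN (Slco1b2, Slco1a4, Slc10a1 and Cyp7b1), against 13.4% of all genes. It was 2 of 7 in DD against DN (Slco1b2 and Slc10a1), against 18.5%, and 3 of 7 for the interaction (the 3 transporters), against 20.0%. It was 0 of 7 in ND against NN, DD against ND, DD against NN and ND against DN, where the shares of all genes were 4.63%, 8.77%, 3.58% and 2.83%. The counts moved with single arrays. When 1 array was left out they ranged from 1 to 4 in DN against NN (1 without NN 4, and 2 without NN 1, NN 3, DN 1 or DN 3). In DD against DN they ranged from 1 to 2 (1 without DD 1, DN 2 or DN 4). For the interaction they ranged from 1 to 3 (1 without DD 1, DD 4, DN 3, DN 4, ND 1, ND 4, NN 1 or NN 4). The 4 counts of 0 reached 2 in ND against NN (without NN 2) and 1 in each of the other 3 comparisons. With array spread as a covariate the count was 3 in DN against NN, 1 in DD against DN and 1 for the interaction. The median difference of the 7 genes was 0.49 in DN against NN, beside -0.03 for all genes tested, and -0.37 in DD against DN, beside 0.01.

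The 3 transporters varied together over the livers. Over the 17 arrays Pearson's r was 0.783 between Slco1b2 and Slco1a4, 0.758 between Slco1b2 and Slc10a1 and 0.757 between Slco1a4 and Slc10a1 (Spearman's rho 0.696, 0.684 and 0.694). With the group means removed r was 0.724, 0.625 and 0.715. Without the 2 livers farthest from the median of Slco1b2 (first pair) or of Slc10a1 (the other pairs), and with the group means kept, r was 0.69, 0.649 and 0.659. These are 3 of 28 such relations computed among the genes and array spread, given as descriptions of livers that share their array normalisation.

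Array spread moved with the transporters. Its r with Slc10a1 was 0.696 (Spearman 0.74), with Slco1b2 0.52 (0.564) and with Slco1a4 0.513 (0.581), over 17 arrays, and it was 0.763, 0.744 and 0.713 without the 2 arrays farthest from the median spread. With the group means removed r was 0.619, 0.223 and 0.44. With array spread as a covariate Slco1b2 kept differences of 0.99 ± 0.34 (SE, DN minus NN), -0.98 ± 0.38 (DD minus DN) and -1.45 ± 0.57 (interaction), with unadjusted p of 0.0105, 0.0209 and 0.0215 (limma, adjusted p = 0.651, 0.876 and 0.985). Slc10a1 came to 0.25 in DN minus NN, -0.21 in DD minus DN and -0.12 in the interaction. For Slco1a4 the covariate gave 0.83 in DN minus NN, -0.17 in DD minus DN (-0.63 without it) and -0.52 in the interaction.

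**Figure D3:**
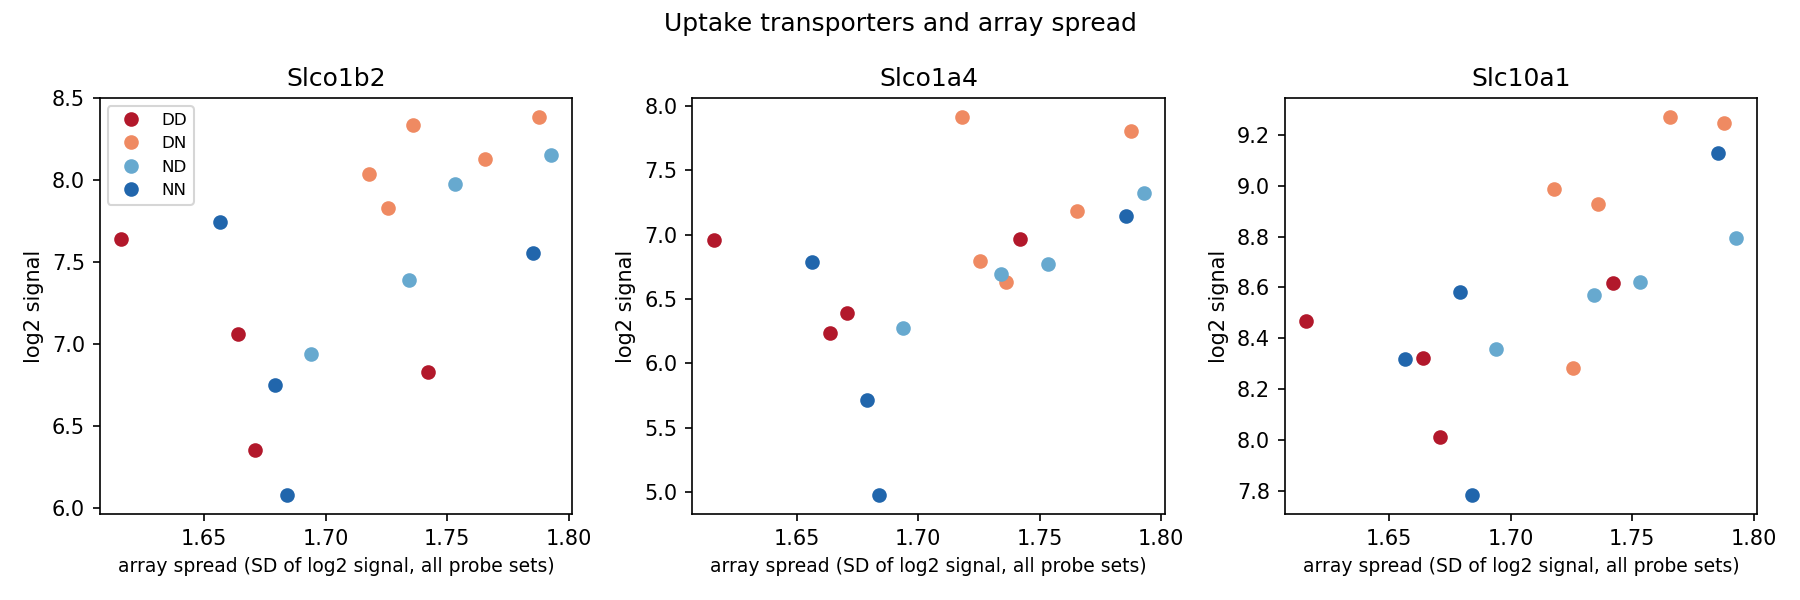
Log2 signal of Slco1b2, Slco1a4 and Slc10a1 (vertical axes) against array spread, the SD of log2 signal over all probe sets (horizontal axes); each point is 1 liver, coloured by group. The DD livers lie mostly at low spread and the DN livers between 1.72 and 1.79, with r of 0.52, 0.513 and 0.696.

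**Figure D4:**
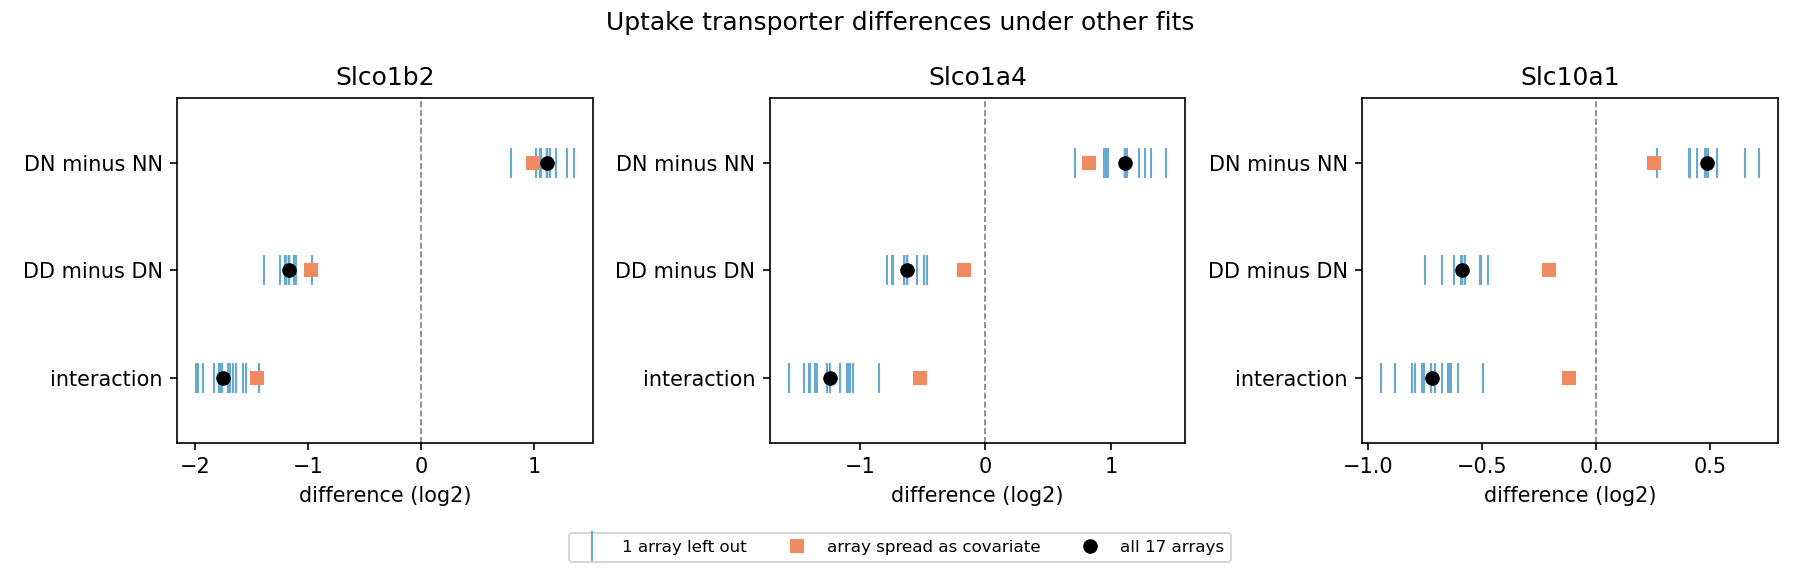
Differences in log2 signal (horizontal axes) of the 3 transporters for DN minus NN, DD minus DN and the interaction, fitted with all 17 arrays (black), with 1 array left out (blue bars) and with array spread as a covariate (orange). All points keep their side of 0, and the orange points of Slc10a1 are at 0.25, -0.21 and -0.12.

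By Pearson's r, the genes closest to Slco1b2 over the 17 livers were Pum2, an RNA-binding translational repressor (r = 0.894, Spearman 0.897), and Sacm1l, a phosphoinositide phosphatase (r = 0.888, Spearman 0.858). Slco1a4 was closest to Glyat, a glycine conjugating enzyme (r = 0.918, Spearman 0.86), and Aadac, an esterase of the endoplasmic reticulum (r = 0.914, Spearman 0.87). Slc10a1 was closest to Ptbp3, an RNA-binding protein (r = 0.949, Spearman 0.941), and the transcription factor Nfib (r = 0.915, Spearman 0.939). Without the 2 livers farthest from each transporter's median r lay between 0.791 and 0.93 for these 6 genes. Here and below, the closest genes were picked for the highest r among all genes tested, so the choice itself raises r.

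Other genes on the uptake list showed smaller differences. Besides the 3 transporters, 3 of the 9 listed genes were measured, with 0 at an unadjusted p under 0.05 in any comparison and a median of 0.13 in DN against NN. Ephx1, the microsomal epoxide hydrolase, averaged 8.15 ± 0.33 in DD against 8.61 ± 0.38 in DN (-0.45 ± 0.23 SE, limma adjusted p = 0.301), and this was -0.02 with array spread as a covariate. The organic anion carriers Slco2b1 (6.42 ± 0.56 in DD and 6.78 ± 0.60 in DN) and Slc22a7 (6.76 ± 0.38 in DN and 6.99 ± 0.43 in NN) overlapped between groups within their SDs. Slc22a7 had its lowest group mean in DN, the reverse of the 3 transporters, with 6.95 in DD and in ND.

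None of the 3 measured synthesis genes passed the test over all genes in any comparison, and Cyp7a1 varied most between livers of the same group. Its log2 signal was 6.68, 5.22, 5.87 and 5.34 in DD, 5.38, 5.56, 4.04, 4.23 and 8.11 in DN, 7.55, 4.48, 4.60 and 6.59 in ND, and 4.40, 6.86, 7.35 and 4.33 in NN. The highest and the lowest of all 17 livers, a 16.8-fold range, were both DN livers. Mean ± SD was 5.77 ± 0.66 in DD (n = 4), 5.46 ± 1.63 in DN (n = 5), 5.80 ± 1.51 in ND (n = 4) and 5.74 ± 1.60 in NN (n = 4). The comparison with the smallest p, ND minus DN, gave 0.34 ± 0.82 (SE, 95% interval -1.40 to 2.08, adjusted p = 0.999), an interval that holds differences of over 1 log2 unit in either direction.

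The SD of Cyp7a1 within groups, 1.43, was the third highest of the 12912 genes, after Rpl30 (1.57) and Cyp2b1 (1.43), against a median of 0.25. For the other 6 bile acid genes it lay between 0.32 (Cyp27a1) and 0.64 (Slco1a4). The genes closest to Cyp7a1 were Fam118b (r = 0.736, Spearman 0.684) and Mrpl49, a mitochondrial ribosomal protein (r = 0.728, Spearman 0.624), and without the 2 livers farthest from its median r was 0.624 and 0.65. Both were picked for the highest r among the 12912 genes other than the members, so these values do not show a relation by themselves. Cyp7a1 had an r of 0.061 with array spread.

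Cyp27a1 opens the alternative pathway and had the narrowest range of the 7 genes. It measured 7.22, 7.37, 7.01 and 6.98 in DD, 7.31, 7.35, 7.25, 7.73 and 7.18 in DN, 7.62, 7.78, 7.32 and 7.23 in ND, and 7.63, 7.73, 6.53 and 7.30 in NN. Every group overlapped every other, and the lowest value belonged to NN 3. DD averaged 7.14 ± 0.19 against 7.49 ± 0.26 in ND (SD, n = 4 each), a difference of -0.34 ± 0.21 (SE, 95% interval -0.79 to 0.11, limma adjusted p = 0.622). This value was -0.11 with array spread as a covariate. Its closest genes were the ribosomal protein gene Rpl7a (r = 0.84, Spearman 0.833) and Cds2, a CDP-diacylglycerol synthase (r = 0.839, Spearman 0.912), with r of 0.792 and 0.747 without its 2 farthest livers.

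Cyp7b1 is the second enzyme of the alternative pathway and was dim, with a mean of 2.96 where the median of all values was 2.58. Its signal was 2.47, 2.78, 3.28 and 3.07 in DD, 3.23, 2.89, 4.53, 3.06 and 2.64 in DN, 2.92, 2.72, 3.03 and 2.95 in ND, and 2.63, 2.91, 2.51 and 2.65 in NN. DN 3 stood alone at 4.53. The DN mean was 3.27 ± 0.74 (SD, n = 5) against an NN mean of 2.67 ± 0.17 (SD, n = 4), a difference of 0.60 ± 0.27 (SE, adjusted p = 0.363), and without DN 3 the difference was 0.28. The closest genes were Trappc2b (r = 0.877, Spearman 0.49) and Fancl, a ubiquitin ligase of DNA repair (r = 0.875, Spearman 0.625), and r was 0.486 and 0.556 without the 2 livers farthest from its median, so that both relations were weaker without those livers.

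The synthesis list held 20 genes, of which 15 were measured, 12 besides the 3 above. In DN against NN 11 of the 12 were positive, with a median of 0.36 beside -0.03 for all genes, where 44.5% of genes were positive. At an unadjusted p under 0.05 there were 3 higher and 1 lower, beside 13.4% of all genes. In DD against DN 11 of the 12 were negative and 1 positive, where 51.6% of all genes were positive, with a median of -0.22 beside 0.01 and 2 lower, beside 18.5% of all genes at that threshold. The interaction had a median of -0.60 beside 0.03, with 5 lower, beside 20.0%. These comparisons share the DN livers, so their opposite signs are not independent. These counts and medians, like those of the other lists, were not adjusted for array spread. It averaged 1.75 in DN, 1.70 in NN and 1.67 in DD, and its part in the list counts was not tested. No gene passed over all genes. Acox2, the peroxisomal oxidase that shortens the sterol side chain, averaged 8.63 ± 0.35 in DD, 9.00 ± 0.19 in DN, 8.97 ± 0.12 in ND and 8.69 ± 0.22 in NN, with an interaction of -0.65 ± 0.23 (SE, adjusted p = 0.148). That value was -0.21 with array spread as a covariate. Ch25h, cholesterol 25-hydroxylase, averaged 1.78 ± 0.14 in DN and 2.08 ± 0.18 in NN (-0.30 ± 0.12 SE, adjusted p = 0.331), with 3 of the 5 DN livers under the filter's floor of 1.73, so its size is uncertain. Scp2, sterol carrier protein 2, averaged 3.03 ± 1.22 in DN and 1.51 ± 0.24 in NN, where its mean lay under that floor. The size of its difference of 1.52 ± 0.51 (SE, limma adjusted p = 0.281) is therefore uncertain, and the difference was 1.04 without DN 3.

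Nr0b2 (SHP), the repressor that closes the feedback on Cyp7a1, had 5.18, 5.16, 4.34 and 4.89 in DD, 5.05, 4.89, 3.76, 5.05 and 4.17 in DN, 4.99, 5.60, 4.66 and 4.41 in ND, and 5.21, 5.63, 4.47 and 4.74 in NN. All groups overlapped, and the 2 lowest livers were DN 3 and DN 5, which also hold the lowest and the highest Cyp7a1. The DN mean was 4.58 ± 0.58 (SD, n = 5) against an NN mean of 5.01 ± 0.51 (SD, n = 4), a difference of -0.43 ± 0.31 (SE, 95% interval -1.07 to 0.22, adjusted p = 0.538), or -0.22 without NN 2 and likewise without DN 3. Over the 17 livers r between Nr0b2 and Cyp7a1 was -0.097 (Spearman -0.086), and between Nr0b2 and Cyp27a1 it was 0.614 (Spearman 0.685), or 0.583 without the 2 livers farthest from the Cyp27a1 median. Its closest genes were the respiratory chain subunits Ndufs7 (r = 0.836, Spearman 0.697) and Ndufa11 (r = 0.835, Spearman 0.836), with r of 0.739 and 0.778 without its 2 farthest livers.

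Among other regulators of the pathway 13 were measured, and 0 passed over all genes in any comparison. Their interactions had a median of 0.12 beside 0.03 for all genes, with 7 positive and 6 negative, and at an unadjusted p under 0.05 there were 2 higher and 4 lower, beside 20.0% of all genes. The 2 higher were Cebpa and Foxa2, both hepatocyte transcription factors, which are named after their values were seen. Cebpa averaged 7.72 ± 0.33 in DD, 6.73 ± 0.41 in DN, 7.17 ± 0.74 in ND and 7.49 ± 0.55 in NN, and Foxa2 5.05 ± 0.59 in DD, 4.59 ± 0.37 in DN, 4.46 ± 0.21 in ND and 5.13 ± 0.41 in NN. The 3 regulators of smallest p, given next, were all lower. Nr5a2 (LRH-1), a nuclear receptor that activates Cyp7a1 and is held down by SHP, had 5.39, 5.95, 5.16 and 5.28 in DD, 6.46, 5.84, 5.91, 6.55 and 6.11 in DN, 5.95, 5.79, 5.86 and 6.13 in ND, and 5.35, 5.87, 5.15 and 5.36 in NN. In DD and in NN 1 liver reached the DN range, and the other 3 of each lay below every DN and ND liver. Its interaction was -1.23 ± 0.27 (SE, adjusted p = 0.114), and it passed without NN 2 (-1.38, adjusted p = 0.0269). The xenobiotic receptor CAR (Nr1i3) averaged 4.91 ± 0.35 in DD, 5.52 ± 0.43 in DN, 5.80 ± 0.39 in ND and 4.64 ± 0.84 in NN, with an interaction of -1.76 ± 0.46 (SE, adjusted p = 0.114). Prox1, a hepatocyte transcription factor, averaged 5.47 ± 0.58 in DD, 6.12 ± 0.32 in DN, 6.20 ± 0.33 in ND and 5.64 ± 0.32 in NN (-1.21 ± 0.35 SE, adjusted p = 0.118). Without NN 2 the adjusted p was 0.0219 for Nr1i3 and 0.0497 for Prox1. All 3 moved with array spread (r = 0.833 for Nr5a2, 0.727 for Nr1i3 and 0.82 for Prox1), and with it as a covariate their interactions were -0.63, -0.86 and -0.49.

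The export list was read from 9 of its 15 genes. Abcb11, the bile salt export pump, was not analysed here, so bile acid secretion by it is not described. Abcc2 and Abcc3 were among the others not measured. Abcb4, which moves phosphatidylcholine into bile, had 5.51, 6.09, 5.40 and 5.996 in DD, 6.65, 6.35, 6.49, 7.46 and 6.44 in DN, 6.89, 6.32, 6.17 and 6.45 in ND, and 6.29, 6.47, 6.29 and 5.46 in NN. All 4 DD livers lay below all 5 DN livers, as 5.88% of all genes did or the reverse. DD averaged 5.75 ± 0.34 (SD, n = 4) against 6.68 ± 0.45 (SD, n = 5) in DN, a difference of -0.93 ± 0.24 (SE, adjusted p = 0.131), and -0.60 with array spread as a covariate. Atp8b1, an aminophospholipid flippase of the canalicular membrane, averaged 3.74 ± 0.31 in DD against 4.47 ± 0.25 in DN (-0.73 ± 0.21 SE, adjusted p = 0.132), and -0.25 with that covariate. Abcb1a, a multidrug exporter, averaged 4.30 ± 0.32 in ND against 4.93 ± 0.69 in DN (-0.63 ± 0.29 SE, adjusted p = 0.999), and -0.35 without DN 4. Over the 9 genes the median was -0.48 in DD against DN, beside 0.01 for all genes, with 2 positive (51.6% of all genes) and 7 negative. The 2 positive were Slc51a (2.29 ± 0.15 in DD, 2.09 ± 0.22 in DN) and Slc51b (2.15 ± 0.04 and 2.04 ± 0.12). Both were dim, under the median of all values of 2.58. Abcc4, 1 of the 7 negative, averaged 4.02 ± 0.45 in DD and 4.06 ± 0.89 in DN. Of the 9 genes, 2 had an unadjusted p under 0.05, a share near the 18.5% of all genes. In DN against NN, which uses the same DN livers, the median was 0.40 beside -0.03, with 6 positive (44.5% of all genes) and 2 at that threshold (13.4% of all genes).

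**Figure D5:**
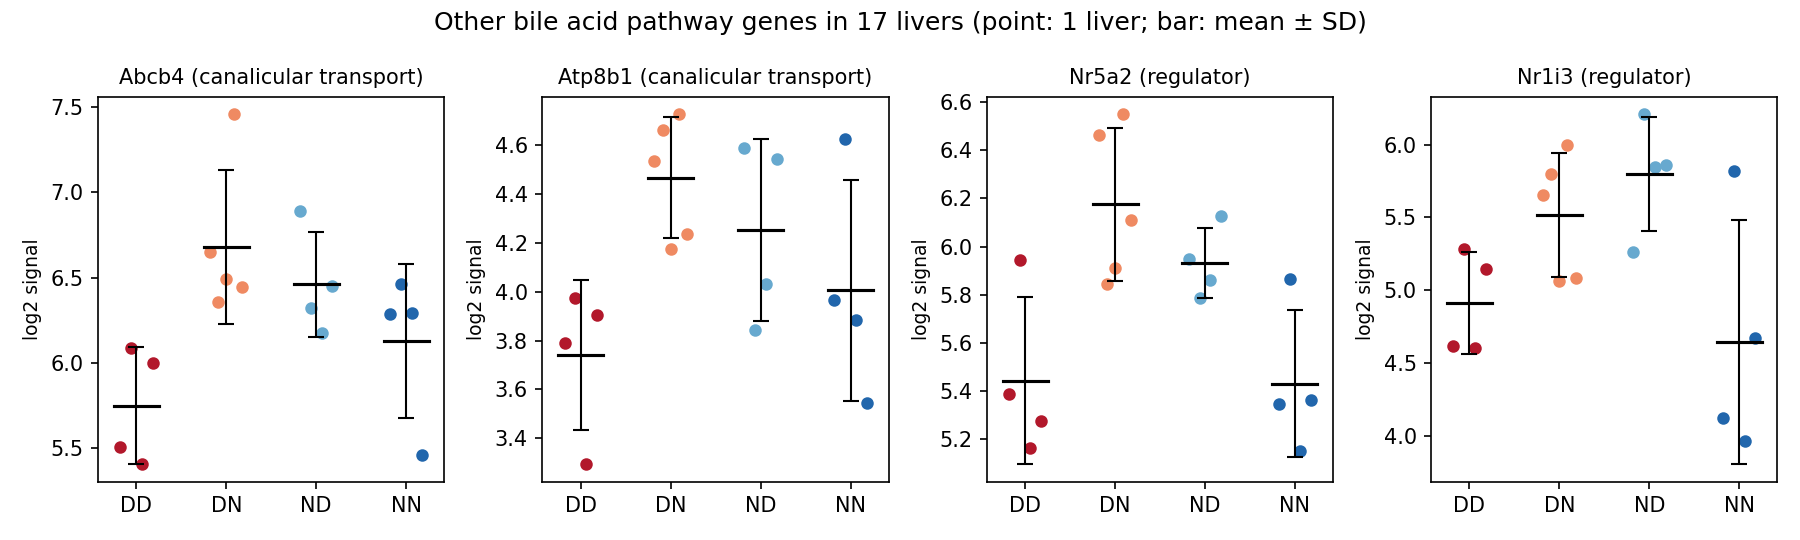
Log2 signal (vertical axes) of the canalicular transporters Abcb4 and Atp8b1 and the nuclear receptors Nr5a2 and Nr1i3 in DD, DN, ND and NN livers (horizontal axes); points are single livers, wide lines are means and bars are SD. The 4 DD livers lie below all DN livers for Abcb4 and Atp8b1, and for Nr5a2 most DD and NN livers lie below the DN and ND livers.

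Markers of other liver cells were read beside these genes as the mean log2 signal of each list. Endothelial markers (5 of 8 found) ranged from 5.27 to 5.82 in DD, 5.74 to 6.13 in DN, 5.69 to 6.09 in ND and 5.40 to 6.05 in NN. Kupffer cell markers (7 of 8) ranged from 4.66 to 4.94 in DD, 4.70 to 5.53 in DN, 4.75 to 5.64 in ND and 4.96 to 5.48 in NN. Stellate cell markers (7 of 9) ranged from 4.33 to 4.97 in DD, 4.42 to 4.69 in DN, 4.47 to 4.74 in ND and 4.27 to 4.43 in NN. Cholangiocyte markers (6 of 9, of which 3 lay under the median of all values) stayed between 2.53 and 2.87 in every group, and hepatocyte markers between 10.62 and 10.89. Erythroid markers (2 of 7) and lymphocyte markers (5 of 7) overlapped between all groups. The lowest arrays for endothelial and for Kupffer cell markers were DD arrays, although the DD and DN ranges overlapped. The DD range lay wholly below the NN range for Kupffer cell markers, and the NN range wholly below the ND range for stellate cell markers. The part of these cells in the results was not tested.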

How the data were processed

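Per the labels' protocols, total liver RNA was biotin-labelled for Affymetrix arrays, 1 for each of 17 rats. The authors deposited probe set values on the log2 scale, and per the submitters' processing notes they used RMA and affy. Their versions are not given in the sources used here. The base of the logarithm was taken as 2, as RMA returns it. Array medians lay between 2.50 and 2.71, and arrays carry no read depth.

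Of 36685 probe sets, 15653 were annotated, 14824 with 1 symbol, 829 with several, and the rest are unnamed here. Where a gene had more than 1 probe set (234 genes), its brightest by mean stood for it. A gene was tested if 4 or more arrays exceeded 1.73, which is the 25th percentile over the whole table. Group means were fitted to all arrays in limma 3.58.1 (R 4.3.3) with 13 residual degrees of freedom, and p-values were adjusted by Benjamini-Hochberg within each of 7 comparisons: 6 pairs of groups and the interaction. The fit was also run on simulated data with noise independent between genes, so that run cannot speak to the effects of array spread. Values after ± are SD for means and SE for differences. Differences are printed for each member where its unadjusted p was under 0.05, otherwise for its smallest p. From each other list up to 3 genes are named by smallest p, and the 2 genes of highest Pearson r per member. Members and lists were chosen with earlier results of these data known, array spread as a covariate too. The fit without DN 3 and DD 3 was added after seeing the data. Promoters are from RefSeq (GRCr8), in which 6 of the 10 members matched. No label gives a batch. Figures were drawn with matplotlib 3.10.9.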

Additional observations from a re-analysis of the deposited data

How the results depend on the processing

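Of the 12 differences of bile acid genes printed, none passed in any of the 11 alternatives other than leaving out 1 array, and 1 passed in 1 fit without an array, the Slco1b2 interaction without NN 2. The count of called bile acid genes ranged from 0 to 1 for the interaction when 1 array was left out and stayed at 0 in the other 6 comparisons. Over all genes those fits called 0 to 1 genes in DD against DN, 0 to 18 in DN against NN and 0 to 639 in the interaction, the highest counts of the last 2 both without NN 2. The single gene called over all genes in DD against DN was lost (0 genes) with no filter on dim genes, with arrays centred on their median, with only the groups compared, with array spread as a covariate and without DN 3 and DD 3. The Cyp7a1 value of ND minus DN ranged from -0.24 (without ND 1) to 1.00 (without DN 5) when 1 array was left out and was -0.016 without DN 3, also with DD 3 left out, and that of Slco2b1 in DD minus DN turned to 0.20 with array spread as a covariate. The causes were not tested.

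The labels do not say that livers of the same replicate number are paired. Of 24 same-numbered pairs of arrays 11 had deviations correlated above 0.1, and 8 of 17 arrays correlated best with one of their own number. DN 5 has no partner of its own number, and the count to expect without pairing was not computed. The median correlation was 0.04 for same-numbered pairs and -0.033 for pairs of different number. What the numbers share was not tested. With the replicate number as a block, 3 genes were called in DD against DN in place of 1, and 0 bile acid genes in any comparison. Only DN has a replicate 5, so this fit gave DN 5 its own term and left it out of the group differences. Between groups of 4 and 5 livers a difference like that of Cyp7a1 carries an SE of 0.82 log2 units.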

Other observations

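Genes of liver zones and of liver maturation were measured beside the bile acid genes. Of 9 periportal genes listed 7 were measured. All 7 were positive in ND against NN, where 48.4% of all genes were (median 0.25, beside -0.01). In DN against NN 6 of the 7 were positive (44.5% of all genes, median 0.24), and in DD against NN 5 (43.8%, median 0.17). These comparisons share the NN livers. At an unadjusted p under 0.05 in ND against NN there was 1, beside 4.63% of all genes. It was Ass1 of the urea cycle, which averaged 10.12 ± 0.26 in ND and 9.59 ± 0.49 in NN (0.53 ± 0.24 SE, limma adjusted p = 0.889). Without NN 4 the Ass1 difference was 0.37. Of 8 pericentral genes listed 5 were measured, and Glul, Cyp2e1 and Cyp1a2 were not. Of the 5, 2 were higher and 1 lower in DN against NN at an unadjusted p under 0.05, which 13.4% of all genes passed. Oat, ornithine aminotransferase, averaged 7.46 ± 0.61 in DN and 6.60 ± 0.86 in NN (0.86 ± 0.37 SE, limma adjusted p = 0.348), and the difference was 0.53 without NN 4. Lgr5 averaged 2.65 ± 0.17 in DN and 3.08 ± 0.35 in NN (-0.43 ± 0.16 SE, limma adjusted p = 0.315), where the median of all values was 2.58. Its difference was -0.28 without NN 3. Rgn, regucalcin, had an interaction of -0.90 ± 0.33 (SE, adjusted p = 0.162), and -0.59 with array spread as a covariate. Of 10 genes listed for the fetal and weaning liver 5 were measured. Among them Cyp2c11, a male-specific P450, averaged 4.69 ± 1.53 in ND and 3.19 ± 0.54 in NN, and without ND 4 the difference of 1.49 came to 0.79. Afp, alpha-fetoprotein, averaged 5.65 ± 0.58 in DD and 6.48 ± 0.75 in NN (-0.84 ± 0.47 SE, adjusted p = 0.999), and the difference was -0.54 without NN 2, -0.55 without DN 3 and DD 3, and -0.49 with array weights.

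In 32 sets of group values tested for a single liver far from the rest, 7 genes and array spread in 4 groups each, none passed Dixon's 95% limit.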
